A study of Mus musculus with 4 samples.

Results

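The 76 mitochondrial ribosomal protein genes on a mouse liver array were followed across 4 genotypes that differ in 2 genes of ribosome biology, Rps6 and Myc. The members are all genes whose symbol begins with Mrpl or Mrps followed by a number and that are the only gene named for a probe set, a group of short probes that reads 1 transcript. They are 76 of 18194 genes measured in this way and hold 156 of 34958 probe sets. By symbol 47 are Mrpl and 29 Mrps genes. By where the protein sits, 49 belong to the large subunit, 26 to the small subunit and 1, Mrps36, to neither. Each gene is given by its brightest probe set on average over the 4 arrays.

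Each array held liver RNA combined in equal amounts from 3 non-fasted male mice at 5 weeks of age, with 1 array for each genotype, so no value has a replicate and no test between genotypes was possible. The mice were of a mixed hybrid strain background. WT mice lacked Cre. DS6 mice (ΔS6 in the study) carried floxed Rps6 alleles and a Cre driven by the albumin promoter, which deletes the gene in hepatoblasts, the fetal precursors of hepatocytes and bile duct cells, and does so in only some of the cells. Myc mice (Alb-c-Myc) had intact Rps6 and a Myc transgene under the albumin promoter, and DS6 Myc mice (ΔS6:c-Myc) had both the deletion and the transgene. All values are log2 expression values, so a log2 ratio of 1 is a doubling.

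Mitochondria keep their own ribosome, which translates the few proteins encoded in mitochondrial DNA, all of them parts of the oxidative phosphorylation machinery. Its RNAs come from mitochondrial DNA, but every one of its proteins is encoded in the nucleus, made on cytosolic ribosomes and imported. Some of these proteins are shared with all ribosomes, some with bacterial ribosomes and some are found in mitochondria alone. Rps6 is a protein of the small subunit of the cytosolic ribosome, and Myc is a transcription factor known for raising genes of ribosome production and of mitochondria. Hepatocytes are rich in mitochondria.

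The deleted and the added gene were examined first. The 9 probe sets that read Rps6 together with its pseudogene Rps6-ps4 had a median log2 ratio of -0.29 in DS6 over WT (-0.42 to -0.10) of -1.76 in DS6 Myc over Myc (-2.37 to -1.25) and of -1.31 in DS6 Myc over DS6 (-1.76 to -0.37). The 2 probe sets that name Rps6 alone went opposite ways, with log2 ratios of -0.79 and 1.47 in DS6 over WT and of -2.48 and 2.59 in DS6 Myc over Myc, so the check of the deletion is a limited one. The Myc gene had values of 8.33 on the WT, 8.89 on the DS6, 11.68 on the Myc and 11.37 on the DS6 Myc array. Hepatocyte markers were high on all 4 arrays, with medians over 5 genes of 15.04 to 15.15. The WT array stood apart from the other 3. Its value of Xist, the X-inactivation RNA of female cells, was 11.84 against 5.88 to 6.33 elsewhere although all mice were labelled male. Its Y-linked genes were slightly lower than on the other arrays, with Eif2s3y at 8.67 against 8.91 to 9.11, Kdm5d at 7.70 against 8.07 to 8.25 and Uty at 7.72 against 7.79 to 8.03. The median of 5 pancreatic acinar markers was 10.17 on WT against 7.05 to 7.77. Results against WT are therefore given beside a comparison without it: DS6 Myc over Myc for the deletion and DS6 Myc over DS6 for the transgene. Several lists of markers of other cell types were highest on DS6. The summed linear level of 6 macrophage markers was 31801 on DS6 against 5684 to 9792 on the others, that of 4 neutrophil markers 23229 against 557.9 to 637.7, that of 5 biliary and progenitor markers 18508 against 652.4 to 1201, and that of 5 stellate and fibroblast markers 27262 against 10201 to 14431. Of 5 markers of dividing cells, all were above WT on each of the other arrays, with median log2 ratios of 2.72 for DS6, 1.89 for Myc and 1.76 for DS6 Myc. In bulk tissue, fewer cells of a type and less RNA per cell cannot be told apart, and the part of these cell types in the results below was not tested.

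The promoters of 4 members are shown because they stand at the ends of the range described below. Mrps18b and Mrps22 had the highest ratios in DS6 Myc over WT, Mrpl14 the lowest, and Mrps18c is a paralog of Mrps18b whose level hardly differed between arrays. Each run is the 250 bases before the transcription start in GRCm38.p6, from RefSeq, read in the direction of the gene. Capitals mark a match on either strand to an E-box (CACGTG, the site that Myc and related factors can bind), an NRF1 core (GCGCATGC) or an ETS core (CCGGAAGT, the kind of site read by GABPA). The position of Mrps18b is chr17:35916441-35916690 on the minus strand, of Mrps22 chr9:98601680-98601929 on the minus strand, of Mrps18c chr5:100798509-100798758 on the plus strand and of Mrpl14 chr17:45686099-45686348 on the plus strand.
Mrps18b: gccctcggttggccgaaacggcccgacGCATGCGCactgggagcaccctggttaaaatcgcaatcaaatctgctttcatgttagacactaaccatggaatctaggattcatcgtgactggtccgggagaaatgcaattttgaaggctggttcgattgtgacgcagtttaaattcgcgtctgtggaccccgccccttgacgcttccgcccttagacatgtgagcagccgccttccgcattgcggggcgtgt
Mrps22: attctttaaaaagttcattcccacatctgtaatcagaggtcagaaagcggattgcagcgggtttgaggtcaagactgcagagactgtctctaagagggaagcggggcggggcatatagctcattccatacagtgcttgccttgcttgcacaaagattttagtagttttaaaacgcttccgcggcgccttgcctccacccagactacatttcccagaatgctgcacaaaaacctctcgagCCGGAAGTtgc
Mrps18c: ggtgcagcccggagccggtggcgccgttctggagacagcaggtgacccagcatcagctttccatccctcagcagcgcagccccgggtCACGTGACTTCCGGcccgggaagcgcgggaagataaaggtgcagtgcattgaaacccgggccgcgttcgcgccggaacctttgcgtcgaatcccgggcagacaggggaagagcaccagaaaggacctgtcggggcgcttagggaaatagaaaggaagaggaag
Mrpl14: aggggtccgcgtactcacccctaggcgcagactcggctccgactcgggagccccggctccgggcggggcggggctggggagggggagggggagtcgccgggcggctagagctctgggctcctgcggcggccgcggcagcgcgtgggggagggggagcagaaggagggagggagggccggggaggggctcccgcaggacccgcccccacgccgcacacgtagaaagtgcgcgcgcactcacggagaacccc

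As a family, the mitochondrial ribosomal protein genes had their highest values on the DS6 Myc array. It was the highest of the 4 arrays for 53 of 76 members (69.7%), against 22.8% of all genes and 28.5% of the genes with a mean of at least 8, a brightness that every member reached. The DS6 array was the lowest for 45 members (59.2%), against 41.5% of all genes. The median over members was 10.84 on WT, 10.67 on DS6, 10.99 on Myc and 11.10 on DS6 Myc. WT was the highest array for 5 members, DS6 for 3 and Myc for 15.

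The question of the DS6 over WT comparison is what loss of a cytosolic ribosomal protein did to liver mRNA. Most members were near or slightly below WT, with a median log2 ratio of -0.08 beside -0.05 over all genes. Above 0 were 29 of 76 members (38.2%) and 43.9% of all genes. At least 1.5-fold higher was 1 member, Mrps6, while 13.8% of all genes were past this fold upward. At least 1.5-fold lower was also 1 member, Mrpl14, while 7.06% of all genes were past it downward. In either direction 1 of 76 members was past the fold, a smaller share than among all genes. Without WT, the deletion on the transgene background (DS6 Myc over Myc, described below) had a median of 0.22, with 8 members higher and 0 lower. With DS6 set against the Myc array, a pair that differs in both the deletion and the transgene, the median was -0.16 and 1 member was past 1.5-fold in each direction. Neither the median nor the share over all genes was taken for this pair, so these values have no background beside them.

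Mrps6, a small subunit protein shared with bacteria, had values of 9.50 on WT, 10.47 on DS6, 9.59 on Myc and 10.44 on DS6 Myc. It was high on the 2 arrays with the Rps6 deletion and low on the 2 without it. Its log2 ratio was 0.97 in DS6 over WT, 0.85 in DS6 Myc over Myc, 0.09 in Myc over WT and -0.03 in DS6 Myc over DS6. Its other probe set gave 0.80 in DS6 over WT and 0.68 in DS6 Myc over Myc. Mrps22, another small subunit protein, and Mrpl19, a large subunit protein shared with bacteria, followed in DS6 over WT with log2 ratios of 0.44 and 0.40, then Mrpl54 with 0.34 and Mrps25 with 0.31.

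Mrpl14, a universal protein of the large subunit that lies on the face turned to the small subunit, showed the opposite order. Its values were 10.95 on WT, 10.26 on DS6, 11.10 on Myc and 10.52 on DS6 Myc, so both arrays with the deletion were below both without it. The log2 ratio was -0.69 in DS6 over WT and -0.58 in DS6 Myc over Myc, and 1 probe set reads the gene. Mrps12, a protein of the decoding site, had -0.41 in DS6 over WT and -0.35 in DS6 Myc over Myc. Next in DS6 over WT were Mrpl49 with -0.37, Mrpl39 with -0.36 and Mrpl41 with -0.34.

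The Myc over WT comparison asks what the transgene did to a liver with intact Rps6. The differences were small and mostly of 1 sign. The median log2 ratio was 0.10 beside 0.00 over all genes, and the values ran from -0.15 (Mrpl39) to 0.40 (Mrpl19). Above 0 were 62 of 76 members (81.6%) and 50.6% of all genes. No member was past 1.5-fold, upward or downward, while 1.59% of all genes were past it upward and 0.951% downward. After Mrpl19 the highest were Mrps30 with 0.39, Mrps18a with 0.38, Mrps18b with 0.34 and Mrpl9 with 0.33. Mrps30 and Mrps18a carry a small subunit symbol but sit in the large subunit. The lowest after Mrpl39 were Mrpl48 with -0.12, Mrps18c with -0.09, Mrpl52 with -0.08 and Mrps15 with -0.06. For gauge of a single gene's value, bright probe sets of 1 member differed from each other with an SD of 0.107 in this comparison (57 probe sets of 22 members with a mean of at least 8).

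**Figure D1:**
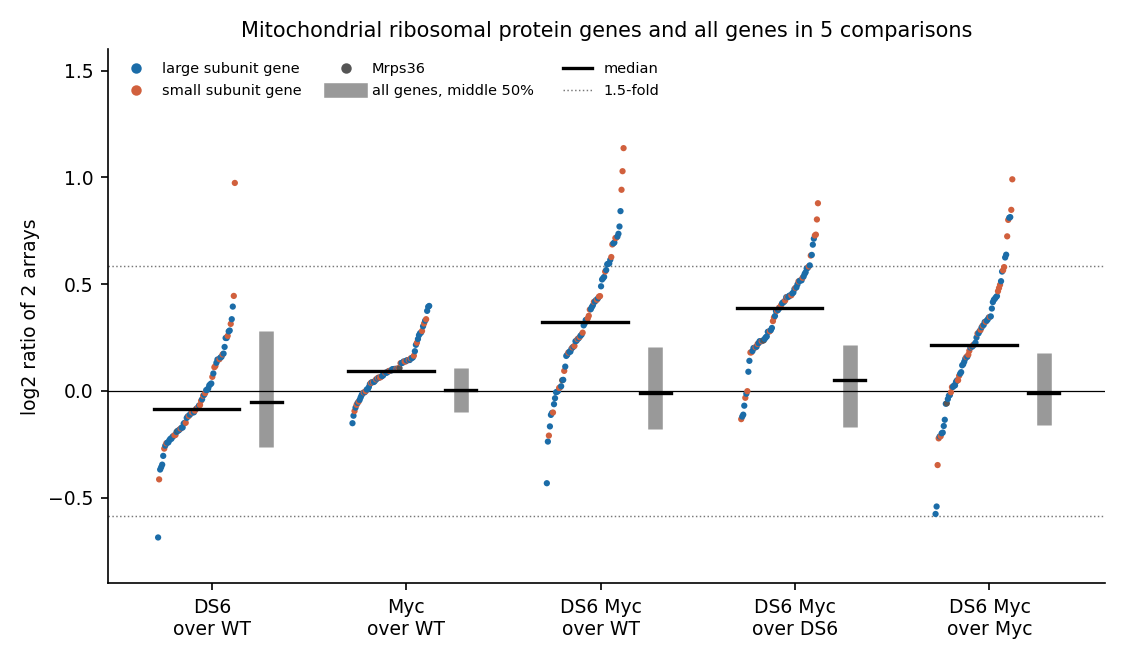
Log2 ratio of each of the 76 mitochondrial ribosomal protein genes in 5 comparisons (points, in order of their ratio, coloured by subunit), beside the middle 50% of 18194 genes (grey bars). Black lines are medians and dotted lines 1.5-fold; the members' median is -0.08 in DS6 over WT, 0.10 in Myc over WT, 0.32 in DS6 Myc over WT, 0.39 in DS6 Myc over DS6 and 0.22 in DS6 Myc over Myc.

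With both the deletion and the transgene the members stood higher. In DS6 Myc over WT the median log2 ratio was 0.32 beside -0.01 over all genes and 0.05 over genes with a mean of at least 8. Above 0 were 64 of 76 members (84.2%) and 48.2% of all genes. At least 1.5-fold higher were 17 members (22.4%), while 8.97% of all genes and 13.7% of those with a mean of at least 8 were past this fold upward. At least 1.5-fold lower were 0 members, while 5.20% of all genes were past it downward. At least 2-fold higher were 2 of 76 members, Mrps18b and Mrps22. Past this fold upward were 545 of 18194 genes, and 412 of the 9042 with a mean of at least 8. At 2-fold the share of members was thus not above that of all genes.

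Mrps18b had values of 10.97 on WT, 11.23 on DS6, 11.31 on Myc and 12.11 on DS6 Myc, and Mrps22 of 10.89, 11.33, 10.92 and 11.92 in the same order. DS6 Myc was the highest array for both, and each of DS6 and Myc lay between it and WT. The log2 ratio in DS6 Myc over WT was 1.14 for Mrps18b (2.20-fold) and 1.03 for Mrps22 (2.04-fold). Both proteins are specific to the mitochondrial small subunit, and MRPS22 is known as a gene of inherited mitochondrial disease. Mrps18b was also higher by 0.88 than on the DS6 array and by 0.80 than on the Myc array, and Mrps22 by 0.58 and 0.99. A single probe set reads each of them.

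The other members past 1.5-fold in DS6 Myc over WT were Mrps6 with 0.94, Mrpl19 with 0.84, Mrpl35 with 0.77, Mrpl52 with 0.74, Mrps10, Mrps30 and Mrps25 with 0.72 each, Mrpl1 with 0.70, Mrpl45, which anchors the ribosome to the inner membrane, with 0.69, Mrps5 with 0.69, Mrps7 with 0.63, Mrpl54 with 0.61, Mrpl57 and Mrpl20 with 0.60 and Mrpl15 with 0.59. Mrpl47 lay just under the fold with 0.57. Mrpl52 was read by 3 bright probe sets, which gave 0.74, 0.80 and 0.82. At the low end were Mrpl14 with -0.43, Mrpl44, which has an RNase III fold, with -0.24, Mrps12 with -0.21, Mrpl46 with -0.17 and Mrpl41 with -0.11.

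**Figure D2:**
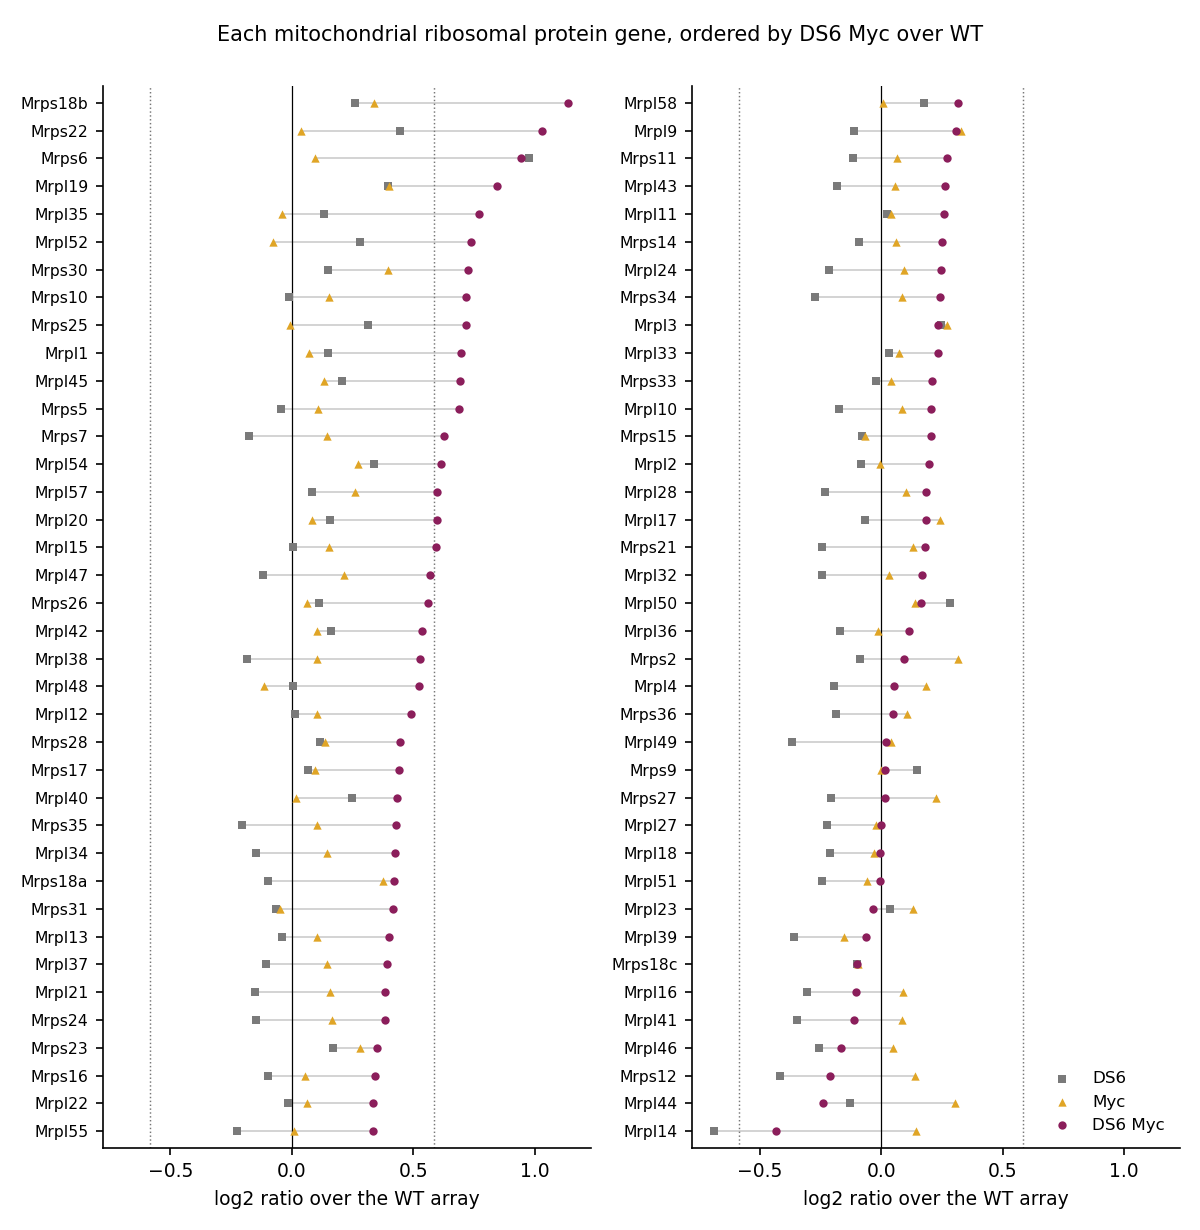
Log2 ratio over the WT array of the DS6 (grey squares), Myc (yellow triangles) and DS6 Myc (purple circles) arrays for each of the 76 genes, ordered by DS6 Myc over WT, with dotted lines at 1.5-fold. For 53 genes the DS6 Myc circle lies to the right of 0 and of both other points, as for Mrps18b at 1.14, while for Mrpl14 at the bottom it is at -0.43.

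The comparisons without WT gave the same direction. DS6 Myc over DS6 compares livers with the deletion with and without the transgene, and the Rps6 probe sets differed in it too (above). The median over members was 0.39 beside 0.05 over all genes. Above 0 were 69 of 76 members (90.8%) and 57.9% of all genes. At least 1.5-fold higher were 9 members (11.8%), while 4.00% of all genes and 6.40% of those with a mean of at least 8 were past this fold upward. Lower were 0 members, while 9.35% of all genes were past it downward. Mrps18b led with 0.88, followed by Mrps7, a protein of the small subunit head, with 0.80, Mrps5 and Mrps10 with 0.73 and Mrpl38, of the central protuberance of the large subunit, with 0.71. The lowest were Mrps9 with -0.13, Mrpl50 with -0.12, Mrpl44 with -0.11, Mrpl23 with -0.07 and Mrps6 with -0.03. Other probe sets gave values above 0 for Mrps9 (0.11 to 0.28), Mrpl50 (0.03) and Mrps6 (0.10). Those of Mrpl44 ran from -0.04 to 0.21, and Mrpl23 has 1 probe set. Markers of other cell types were far lower on DS6 Myc than on DS6: the median log2 ratio was -3.38 for the biliary and progenitor list and -4.86 for the neutrophil list.

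In DS6 Myc over Myc, the deletion on a background with the transgene, the median was 0.22 beside -0.01 over all genes. Above 0 were 60 of 76 members (78.9%) and 48.0% of all genes. At least 1.5-fold higher were 8 members, while 6.82% of all genes were past this fold upward, and lower were 0 members, while 4.28% of all genes were past it downward. Over genes with a mean of at least 8 the upward share was 10.2%, close to the 10.5% of members. Mrps22 led with 0.99, then Mrps6 with 0.85, Mrpl52 and Mrpl35 with 0.81 and Mrps18b with 0.80. The lowest were Mrpl14 with -0.58, Mrpl44 with -0.54, Mrps12 with -0.35, Mrps2 with -0.22 and Mrpl46 with -0.21. The macrophage list had a median of 0.73 and the neutrophil list of 0.20 in this comparison.

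The deletion was thus compared on 2 pairs of arrays that share no array, but with unlike differences in Rps6. The probe sets that read Rps6 with its pseudogene had a median log2 ratio of -0.29 in DS6 over WT. In DS6 Myc over Myc it was -1.76, and the part of this in the values below was not tested. Across members, DS6 over WT and DS6 Myc over Myc had a Pearson correlation of 0.66 and a Spearman correlation of 0.61 (n = 76 genes), and the Pearson correlation over all genes was 0.61. The order of the members was thus similar, but their ratios were higher in the pair with the transgene. The ratio was greater in DS6 Myc over Myc for 67 of 76 members (88.2%) and for 54.8% of all genes. Below 0 without the transgene and above 0 with it were 33 members, against 2 the other way round, 27 above 0 in both and 14 below 0 in both. Mrps7 was one of the first kind, with values of 11.31 on WT, 11.14 on DS6, 11.46 on Myc and 11.94 on DS6 Myc. For the transgene, the 2 pairs without a shared array, Myc over WT and DS6 Myc over DS6, had a Pearson correlation of 0.11 and a Spearman correlation of 0.15 across members (0.08 Pearson over all genes). Genes of 1 array share its RNA and are not independent.

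**Figure D3:**
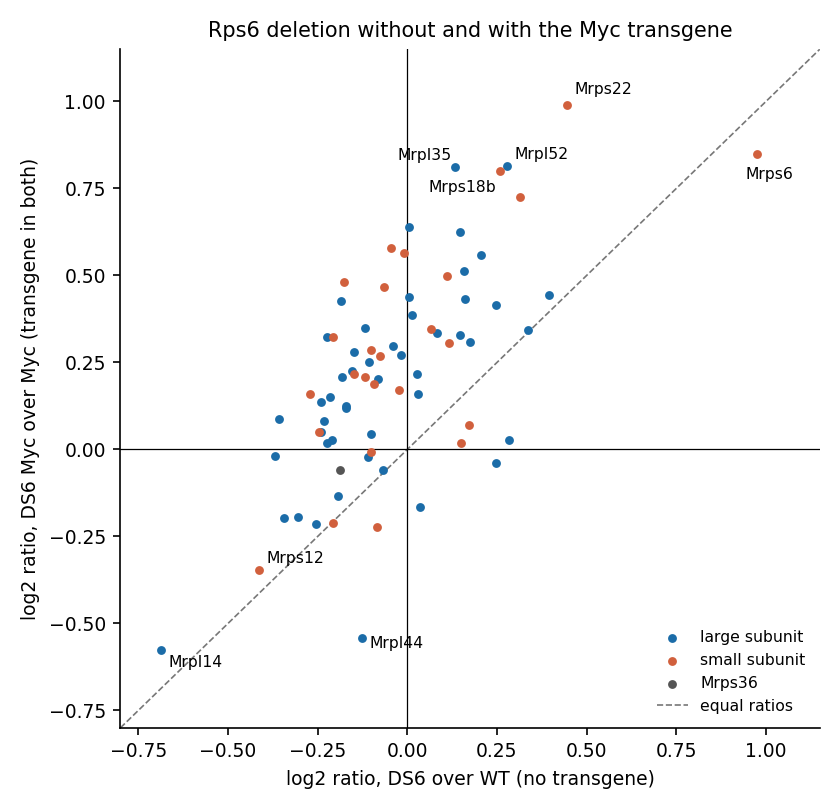
Log2 ratio of the Rps6 deletion without the Myc transgene (horizontal, DS6 over WT) against that with it (vertical, DS6 Myc over Myc) for the 76 genes, coloured by subunit, with a dashed line where both are equal. Of the points, 67 lie above the dashed line, Mrps6 lies below it at 0.97 and 0.85, and Mrpl14 lies at the lower left.

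If the deletion and the transgene added on the log2 scale, DS6 Myc minus DS6 minus Myc plus WT would be 0. Its median was 0.29 over members and 0.03 over all genes, and it was above 0 for 67 of 76 members and 54.8% of all genes. The sum is the same quantity as the ratio in DS6 Myc over Myc minus that in DS6 over WT, so these are the 67 members counted above and no further result. It was highest for Mrpl35 with 0.68, Mrps7 with 0.66, Mrpl48 with 0.64 and Mrps5 with 0.63. Mrpl35 had values of 11.65 on WT, 11.78 on DS6, 11.61 on Myc and 12.42 on DS6 Myc, so that only the array with both changes stood above the rest. It was lowest for Mrpl44 with -0.42, Mrpl3 with -0.29, Mrpl50 with -0.26 and Mrpl23 with -0.20. Mrpl44 had 10.68 on WT, 10.55 on DS6, 10.98 on Myc and 10.44 on DS6 Myc, highest with the transgene alone. This sum uses each array once, the WT array included. The Rps6 probe sets shared with the pseudogene fell further in DS6 Myc over Myc than in DS6 over WT (above). The part of that in the sum was not tested.

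Both subunits had medians above 0 wherever DS6 Myc was compared. In DS6 Myc over WT the median was 0.31 over the 49 large subunit genes, with 10 at least 1.5-fold higher, and 0.37 over the 26 small subunit genes, with 7. In DS6 Myc over DS6 the medians were 0.39 and 0.40, and in DS6 over WT -0.10 and -0.07. By origin, the median in DS6 Myc over WT was 0.25 for the 26 genes of universal ribosomal proteins, 0.33 for the 19 shared with bacteria and 0.42 for the 31 specific to mitochondria. By place, the 7 genes of the small subunit head had a median of 0.42, all above 0, the 6 of the exit tunnel 0.29, and the 4 around the core of the catalytic centre (Mrpl2, Mrpl3, Mrpl4 and Mrpl16) 0.12, with values of 0.20, 0.24, 0.05 and -0.10. These groups are small, their ranges overlap, and the differences between them were not tested.

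The stalk of the large subunit recruits translation factors, and its genes had the same highest array by the probe sets used. Mrpl12, its factor-binding protein, had values of 12.14 on WT, 12.15 on DS6, 12.24 on Myc and 12.62 on DS6 Myc. Mrpl10, which joins Mrpl12 to the ribosome, had 10.91, 10.74, 11.00 and 11.12, and Mrpl11 at the stalk base had 10.62, 10.65, 10.67 and 10.88 in the same order. All 3 were highest on DS6 Myc, with log2 ratios over WT of 0.49, 0.21 and 0.26. Mrpl11 has further bright probe sets, which gave -0.08 and 0.08 in DS6 Myc over WT. In the first of these WT was the highest array, with 10.26 against 10.18 on DS6 Myc.

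The 3 Mrps18 paralogs, which descend from 1 bacterial protein and occupy different places in the ribosome, differed. Mrps18b is described above. Mrps18a had values of 10.67 on WT, 10.57 on DS6, 11.04 on Myc and 11.09 on DS6 Myc, high on both arrays with the transgene and low on both without it. Mrps18c, the closest counterpart of the bacterial protein, had 11.31, 11.21, 11.21 and 11.21, with WT the highest by a small margin (-0.10 in DS6 Myc over WT). Mrps30, the other large subunit protein with a small subunit symbol, had 10.68, 10.82, 11.07 and 11.40. Mrps36, now known as a part of the α-ketoglutarate dehydrogenase complex and not of the ribosome, had 9.90, 9.72, 10.01 and 9.95, a log2 ratio of 0.05 in DS6 Myc over WT.

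Members with several probe sets show how far a single value can be trusted. Of the 76 genes, 42 had 2 or more probe sets and 34 had 1. The 35 further probe sets with a mean of at least 8 had a median of 0.18 in DS6 Myc over WT, with 7 at least 1.5-fold higher, against 0.32 for those used. The 45 further probe sets with a mean under 8 had a median of -0.04, with 0 at least 1.5-fold higher. Both groups reached past 1.5-fold lower, to -0.654 for the bright and -0.655 for the dim ones. In DS6 Myc over DS6 the medians were 0.26 for the bright and 0.17 for the dim ones, and 32 of 35 and 39 of 45 were above 0. For bright probe sets of 1 member the SD was 0.293 in DS6 Myc over WT, 0.195 in DS6 Myc over DS6 and 0.261 in DS6 Myc over Myc (57 probe sets of 22 members). Probe sets disagreed most for Mrpl35, Mrpl1 and Mrpl3. Mrpl1 was given 0.70 in DS6 Myc over WT by the probe set used and -0.49 by another of mean 9.14, and Mrpl35 0.77 by the probe set used, of mean 11.86, and -0.21 and -0.50 by 2 dim ones. For Mrpl3 the probe sets ran from -0.84 to 0.25 in DS6 over WT. In DS6 Myc over WT those of Mrpl15, read by 8, gave 0.51 to 0.63 for the 4 brightest, and -0.18 and -0.12 for the 2 others with a mean of at least 8. In the same comparison the 4 bright probe sets of Mrps5 gave 0.69, 0.84, -0.22 and 0.005. The 2 of Mrpl49 gave 0.02 and -0.65.

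**Figure D4:**
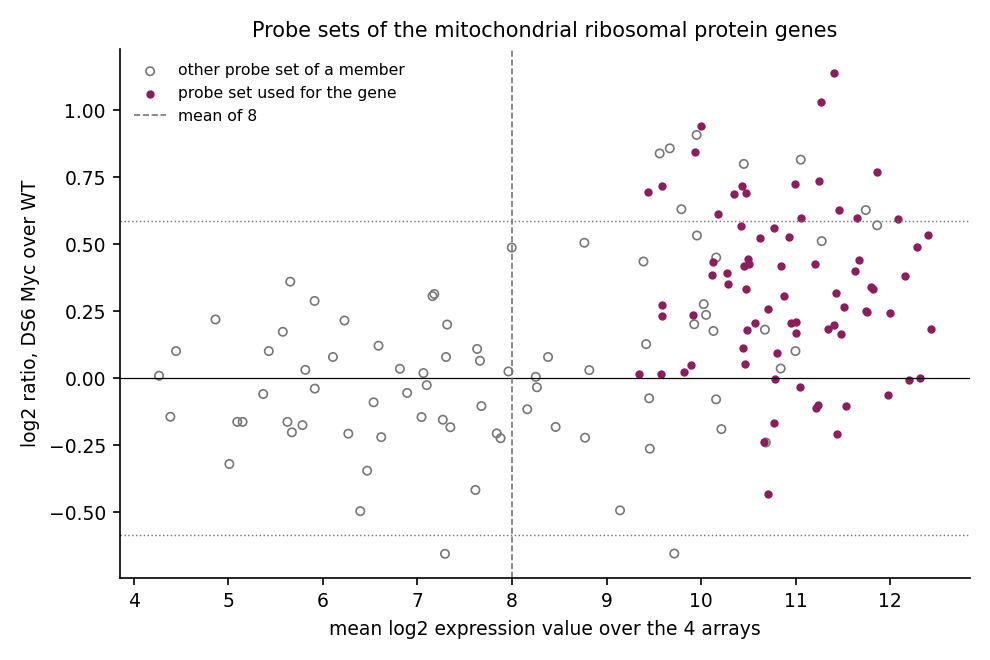
Log2 ratio in DS6 Myc over WT against the mean log2 expression value over the 4 arrays for all 156 probe sets of the members; filled points are the probe sets used for the genes and open circles the others, with a dashed line at a mean of 8 and dotted lines at 1.5-fold. To the left of the dashed line the 45 probe sets centre on -0.04 and none passes 1.5-fold upward, while the 76 filled points have a median of 0.32.

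Other genes needed for mitochondrial translation were set beside the members. Mitoribosomal proteins with other names had values near those of the members: in DS6 Myc over WT Ptcd3 had 0.98, Dap3 0.30, Chchd1 0.30 and Gadd45gip1 0.25. The 20 genes of mitoribosome assembly had a median of 0.17 in DS6 Myc over WT and 0.34 in DS6 Myc over DS6. In the latter 2 were past 1.5-fold upward, Mtg1, a GTPase of large subunit assembly, with 0.67 and Noa1, a GTPase of small subunit assembly, with 0.60. Noa1 was highest on the Myc array, with 8.93 on WT, 8.54 on DS6, 9.72 on Myc and 9.14 on DS6 Myc. Ddx28, an RNA helicase, followed the deletion as Mrps6 did, with 8.43 on WT, 9.41 on DS6, 8.65 on Myc and 9.25 on DS6 Myc, and Nsun4, which methylates the mitochondrial rRNA, was lowest on DS6 Myc, with a log2 ratio of -0.59 in DS6 Myc over Myc. The 10 translation factors had a median of 0.37 in DS6 Myc over DS6, with 4 past 1.5-fold upward. Mtif2, the initiation factor, had 0.70 and Gfm2, the recycling factor, 0.70, but Gfm1, the elongation factor, 0.09 and Guf1 -0.10. Gfm2 was low on DS6 and not raised on DS6 Myc, with 10.14 on WT, 9.35 on DS6, 10.19 on Myc and 10.05 on DS6 Myc. The 16 mitochondrial aminoacyl-tRNA synthetases had a median of 0.26 in DS6 Myc over DS6, with 3 past the fold. Among them were Nars2 with 0.74 and Tars2 with 0.73, while Mars2 had 0.04 and Pars2 -0.03. Nars2 too was low on DS6 and not raised on DS6 Myc, with 9.50 on WT, 8.60 on DS6, 9.64 on Myc and 9.34 on DS6 Myc.

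The 19 genes of mitochondrial DNA and RNA had a median of 0.20 in DS6 Myc over WT and 0.28 in DS6 Myc over DS6. Lrpprc, which stabilises mitochondrial mRNAs, had values of 11.28 on WT, 11.18 on DS6, 11.49 on Myc and 12.31 on DS6 Myc. Top1mt, the mitochondrial topoisomerase, had 9.52, 9.73, 9.73 and 10.62 in the same order. Both were highest on DS6 Myc, with log2 ratios over WT of 1.03 and 1.11, while the transcription termination factor genes Mterf1a and Mterf2 had 0.04 each. The 21 genes of protein import, through which all members' proteins must pass, had a median of 0.35 in DS6 Myc over WT and 0.44 in DS6 Myc over DS6. Timm50, a receptor of the inner membrane, had 1.04 over WT, and in DS6 Myc over DS6 Timm9 had 0.92, while Pmpca had 0.07 and Tomm34 -0.06. Of 11 chaperones and proteases, with a median of 0.30 in DS6 Myc over DS6, Htra2 had 0.76 and Trap1 0.70, and Hspe1 had 0.07 and Spg7 0.02.

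Oxidative phosphorylation subunits, which include the partners of the proteins that the mitochondrial ribosome makes, stood lower than the members. The median of 76 such genes was 0.04 in DS6 Myc over WT, with 2 past 1.5-fold upward, 0.12 in DS6 Myc over DS6 and -0.04 in DS6 Myc over Myc. The 49 genes of cytosolic ribosomal proteins had a median of 0.40 in DS6 over WT, 0.30 in Myc over WT and 0.57 in DS6 Myc over WT, against -0.08, 0.10 and 0.32 for the members. They were thus above WT on the DS6 array too, where the members were not, and their sum of DS6 Myc minus DS6 minus Myc plus WT had a median of -0.10. These differences between lists were not tested.

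**Figure D5:**
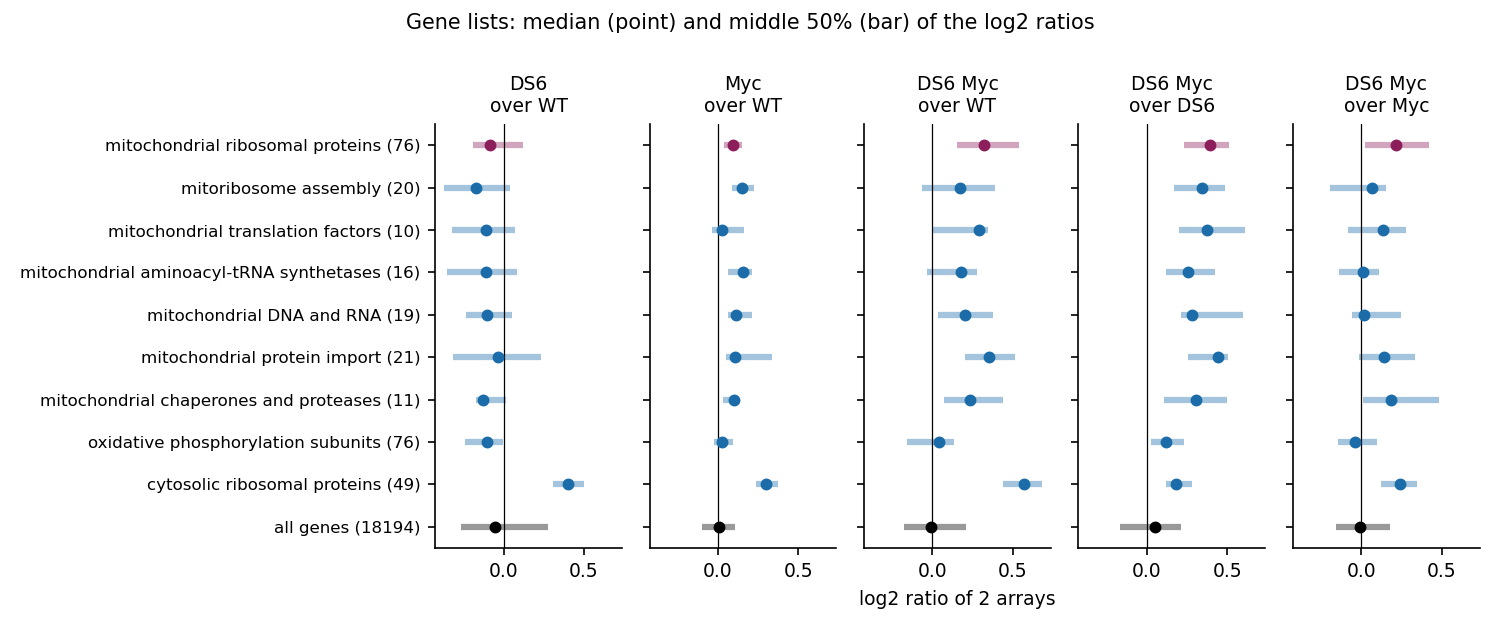
Median (points) and middle 50% (bars) of the log2 ratios of mitochondrial gene lists, cytosolic ribosomal proteins and all genes in 5 comparisons, with the number of genes in brackets. In DS6 over WT the cytosolic ribosomal proteins are at 0.40 and the mitochondrial ones at -0.08, and in DS6 Myc over WT the oxidative phosphorylation subunits are at 0.04 and the mitochondrial ribosomal proteins at 0.32.

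The 9 regulators of mitochondrial biogenesis had medians of 0.11 in DS6 over WT, 0.07 in DS6 Myc over WT and 0.10 in DS6 Myc over DS6. Myc itself, the gene of the transgene, is among the 9, with 0.56, 3.04 and 2.48 in the same order. Ppargc1b, a coactivator of mitochondrial genes, had values of 9.94 on WT, 8.56 on DS6, 10.16 on Myc and 9.47 on DS6 Myc, lowest on DS6. Gabpa, a factor that binds ETS sites, had 10.11, 9.44, 10.01 and 9.47, low on both arrays with the deletion. Pprc1, a coactivator of growth-related mitochondrial genes, had 8.88, 9.30, 9.43 and 9.37, lowest on WT. Nrf1 had 8.88 to 8.94 on all arrays.

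The RefSeq promoter table holds 73 promoters of 67 members, from 250 bases before to 50 after the start, and 32851 promoters in all. An ETS core was found in 16.4% of member promoters and 3.89% of all, a YY1 core (AAGATGGC) in 16.4% and 2.75%, an NRF1 core in 11.0% and 2.71% and an E-box in 9.59% and 7.15%, each searched on both strands. Member promoters were also richer in G and C, with a median of 58.67% against 52.67%, and the part of base composition in these shares was not tested. Genes with a motif did not stand clearly above those without it in DS6 Myc over WT: the medians were 0.20 and 0.29 for the E-box (5 genes with it), 0.22 and 0.32 for the NRF1 core (8), 0.23 and 0.32 for the ETS core (12) and 0.33 and 0.26 for the YY1 core (12). In the promoters printed above, Mrps18b holds an NRF1 core at -223 to -216 from its start and Mrps22 an ETS core at -11 to -4. Mrps18c, whose level hardly differed between arrays, holds both an E-box at -163 to -158 and an ETS core at -157 to -150, and Mrpl14 holds none of these letters. A match is a run of letters and no measure of binding.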

How the data were processed

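Liver RNA of 4 genotypes was hybridised to 1 Affymetrix mouse GeneChip each. The authors applied RMA and quantile normalization, and deposited 1 log2 expression value per probe set and array. RMA and affy are the tools listed in the submitters' processing notes, with versions not given in the sources used here. When sorted, the values of each array lie within 0.189 of those of WT, so a change shared by most genes would not be seen. Of 45101 probe sets, 34958 have 1 gene symbol in the platform annotation, 932 have several and 9211 have none. All 76 member symbols are in the RefSeq gene table. Mrpl30 and Mrpl53 were read only by probe sets that also name another gene and are not members.

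Log2 ratios between 2 arrays were taken per gene, from the probe set with the highest mean, and counted past 1.5-fold. With 1 array per genotype there is no error between animals, and their number limits the precision; the SD between probe sets of a gene serves as a gauge of measurement only. The members and gene lists were chosen with earlier results of these data known. Named members are the 5 highest and 5 lowest of each comparison, the 4 highest and 4 lowest sums, those at the stalk, Mrps18 and relocated sites, and those whose probe sets disagree most; a few others were named after their values were seen. Counting was checked on simulated data. Python 3.11.15, numpy 2.4.6, pandas 2.3.3, statsmodels 0.14.6 and matplotlib 3.10.9 were used.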

Additional observations from a re-analysis of the deposited data

Results flagged for a closer look

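The median over the 76 mitochondrial ribosomal protein genes was below 0 in DS6 over WT (-0.08) and above 0 in DS6 Myc over Myc (0.22). It thus had opposite signs in the pairs without and with the transgene. The Rps6 probe sets shared with the pseudogene also differed between these pairs, with medians of -0.29 and -1.76. The median over genes of the difference between the 2 ratios, which is the sum described above, was 0.292. With 1 array per genotype this difference was not tested.

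The same change of sign was seen for the medians of 6 related lists, but some of these medians were very small. In DS6 Myc over Myc the median was 0.009 for the aminoacyl-tRNA synthetases, 0.019 for mitochondrial DNA and RNA and 0.067 for assembly. These are smaller than the tolerance of 0.1 for a median used below, so their sign carries little weight. The medians of translation factors, protein import and chaperones and proteases were above 0.1 there. In DS6 over WT that of protein import was -0.034. The median difference was 0.179 for mitoribosome assembly, 0.198 for mitochondrial translation factors, 0.132 for mitochondrial aminoacyl-tRNA synthetases, 0.207 for mitochondrial DNA and RNA, 0.238 for mitochondrial protein import and 0.246 for mitochondrial chaperones and proteases. The biogenesis regulators, a list that includes Myc itself, changed sign the other way, from 0.11 to -0.07, with a median difference of 0.008. The -0.07 is within the tolerance of 0.1, so its sign carries little weight either. None of these differences was tested, and all of them use the WT array, which stands apart in Xist and in pancreatic markers.

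Outside the members, a probe set that names both Mrpl30 and the gene Gm6238 had values of 12.44 on WT, 12.46 on DS6, 12.55 on Myc and 12.92 on DS6 Myc, a log2 ratio of 0.478 in DS6 Myc over WT. A dimmer probe set of the same 2 genes had -0.02.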

How the results depend on the processing

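No paired analysis was possible because each genotype has 1 array. Of 187 alternatives for medians and counts over the members, 166 stayed within the tolerance of 0.1 for a median or 1.5 times for a count. The settings that left out genes with a mean under 6 or under 8 removed 0 members. They could not change these results and are counted among those that stayed. With the mean of all probe sets of a gene, the median in DS6 Myc over WT was 0.22, and 9 members were at least 1.5-fold higher there, 3 in DS6 Myc over DS6 and 4 in DS6 Myc over Myc. With the probe set highest on WT, 2 members were lower in DS6 over WT and 1 in DS6 Myc over WT, and Mrpl1 turned to -0.49 in DS6 Myc over WT and -0.44 in DS6 Myc over Myc. Renewed quantile normalization and loess each gave 2 members at least 1.5-fold lower in DS6 Myc over Myc. At 2-fold the members higher were 0 in DS6 over WT, 2 in DS6 Myc over WT, 0 in DS6 Myc over DS6 and 0 in DS6 Myc over Myc, and those lower in DS6 over WT were 0. Of 18194 genes, 1318, 545, 140 and 362 were 2-fold higher in the same order of comparisons. In DS6 over WT 462 of them were 2-fold lower. Past a log2 ratio of 0.32 in size, 4 members were higher and 5 lower in DS6 over WT. In Myc over WT 5 members were higher, and in DS6 Myc over WT 38 were higher and 1 lower. In DS6 Myc over DS6 45 members were higher, and in DS6 Myc over Myc 28 were higher and 3 lower. The share of all genes past 0.32 was not taken, so these counts have no background beside them. The same holds for the 1.5-fold counts of members under the changed settings above. The median over members ranged over the alternatives from -0.16 to -0.08 in DS6 over WT, from 0.08 to 0.11 in Myc over WT, from 0.22 to 0.33 in DS6 Myc over WT, from 0.30 to 0.42 in DS6 Myc over DS6 and from 0.14 to 0.23 in DS6 Myc over Myc. Of 324 alternatives for single members, 305 stayed within the SD between probe sets of a gene, 17 moved further and 2 turned. The settings that removed no member are again among the 305. The Myc array in place of WT was added after the data were seen. No detection calls were used, so ratios of dim probe sets are uncertain.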
